A study of Mus musculus with 8 samples.

Results

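The 34 genes described here encode factors that make ribosomes and enzymes of growth metabolism, genes that are commonly listed as targets of the transcription factor MYC. They were picked by gene symbol from the 24421 symbols of a count table of mouse bone marrow cells carrying the leukaemia fusion MLL-AF10. All 34 were found and all 34 passed the filter on low counts that left 13722 genes for testing. RNA was sequenced from 8 libraries in 4 groups of 2, all of strain C57BL/6 cells grown in methylcellulose with the cytokines SCF, IL-3 and GM-CSF at 10 nM each. In the first line, MATIP, the cells carry MLL-AF10, flox/flox alleles of Tip60, which is the gene Kat5 of a histone acetyltransferase, and the recombinase Cre-ERT2, which 4-hydroxytamoxifen (4-OHT) activates. A pair of MATIP libraries came from cells kept for 4 days in 100 nM 4-OHT (MATIP 4-OHT) and another pair from cells kept for 4 days in the solvent ethanol (MATIP EtOH). In the other line, MAflox, the cells are named MLL-AF10 flox cells, and the labels do not say what is floxed or whether Cre-ERT2 is present. Its groups are MAflox 4-OHT, given the same 4 days at the same dose, and MAflox EtOH. Whether replicate libraries stem from different cultures is not in the labels, and the spread that the p-values rest on may therefore be technical. Nor is it said whether a line is 1 clone.

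Ribosomes are built in the nucleolus, where RNA polymerase I transcribes the precursor of the large ribosomal RNAs. Small nucleolar ribonucleoproteins (snoRNPs) modify that precursor, the small subunit processome cuts it on the way to the 40S subunit, and complexes such as PeBoW process it on the way to the 60S subunit. MYC, which binds DNA as a pair with MAX at the letters CACGTG (the E-box), is a known activator of genes of every one of these steps and of the nucleotide and polyamine enzymes that dividing blood progenitors need.

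The promoter sequences of 5 of the genes are given because they hold the E-box letters of MYC and MAX. Each is the member of its role with the smallest p in MATIP cells whose window, from 250 bases before to 50 bases after the transcription start in RefSeq (GRCm38.p6), has CACGTG. They run 5′ to 3′ on the gene's strand with the E-box in capitals. Mybbp1a and Pes1 lie on chromosome 11 (windows chr11:72441077-72441376, plus strand, and chr11:3963725-3964024, plus strand), Wdr43 on chromosome 17 (chr17:71615965-71616264, plus strand), Nop2 on chromosome 6 (chr6:125131633-125131932, plus strand) and Nme1 on chromosome 11 (chr11:93968223-93968522, minus strand).
Mybbp1a: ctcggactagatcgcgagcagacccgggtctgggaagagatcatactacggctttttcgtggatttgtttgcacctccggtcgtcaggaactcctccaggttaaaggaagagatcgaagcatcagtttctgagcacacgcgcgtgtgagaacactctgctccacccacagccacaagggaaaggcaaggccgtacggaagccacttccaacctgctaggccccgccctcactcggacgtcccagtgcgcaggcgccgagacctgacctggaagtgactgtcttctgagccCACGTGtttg
Wdr43: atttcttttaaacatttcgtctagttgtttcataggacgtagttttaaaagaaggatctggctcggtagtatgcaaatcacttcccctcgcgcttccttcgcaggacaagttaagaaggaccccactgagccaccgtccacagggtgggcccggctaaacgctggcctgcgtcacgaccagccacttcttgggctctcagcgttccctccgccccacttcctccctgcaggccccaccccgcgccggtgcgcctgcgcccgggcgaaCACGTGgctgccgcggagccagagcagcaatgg
Pes1: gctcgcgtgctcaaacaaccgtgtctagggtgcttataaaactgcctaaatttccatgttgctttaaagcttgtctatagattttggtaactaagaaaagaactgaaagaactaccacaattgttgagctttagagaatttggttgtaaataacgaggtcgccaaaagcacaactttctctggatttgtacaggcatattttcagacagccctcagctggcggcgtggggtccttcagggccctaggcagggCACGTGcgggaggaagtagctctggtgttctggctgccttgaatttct
Nop2: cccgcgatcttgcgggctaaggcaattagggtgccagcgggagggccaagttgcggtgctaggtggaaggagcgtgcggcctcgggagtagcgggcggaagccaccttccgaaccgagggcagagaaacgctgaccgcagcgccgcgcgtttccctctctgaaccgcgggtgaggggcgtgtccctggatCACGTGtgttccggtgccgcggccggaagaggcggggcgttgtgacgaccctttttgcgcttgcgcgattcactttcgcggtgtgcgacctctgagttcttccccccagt
Nme1: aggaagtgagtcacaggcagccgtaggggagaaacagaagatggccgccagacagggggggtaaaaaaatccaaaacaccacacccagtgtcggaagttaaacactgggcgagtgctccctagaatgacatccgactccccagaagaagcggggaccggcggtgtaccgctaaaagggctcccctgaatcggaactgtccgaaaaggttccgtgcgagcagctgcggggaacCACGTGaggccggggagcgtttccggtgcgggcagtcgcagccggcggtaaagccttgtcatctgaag

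In Mybbp1a, Wdr43 and Pes1 the E-box began 41, 18 and 3 bases into the transcript, counting the start as 1, and in Nop2 and the printed window of Nme1 it began 60 and 18 bases before the start. Utp20 also held it, beginning at base 38, and so did another window of Nme1. Of the 29 members with a window in the table, 6 held CACGTG (20.7%), against 1189 of 10391 tested genes (11.4%) and 2187 of 27025 genes with a window (8.09%). The letters read the same on both strands. With the weaker letters CACATG (read on the other strand as CATGTG) and also CACGCG (read there as CGCGTG) counted too, sites of different letters being free to overlap in part, the shares were 58.6% of members, 36.0% of tested genes and 30.9% of all genes with a window. Members with CACGTG had median log2 responses to 4-OHT of −1.77 in MATIP and −0.85 in MAflox cells, and the 23 members without it had −1.81 and −0.86. The ranges of these groups overlapped in both lines. Npm1, Fbl, Rrp12, Bop1 and Srm have no entry in the table. A match of letters is no measurement of binding.

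Library totals were 41101309 to 57312490 counts, with 14380 to 15822 genes detected, and the lowest count of any member in any library was 789 (Ppan). Levels are CPM (counts-per-million) after scaling by TMM factors, and a log2 fold change from a fit to all 8 libraries is given ± a standard error. This error was derived from the test, as the size of the change over the square root of its F statistic. A gene is said to rise or fall where the adjusted p of edgeR's quasi-likelihood test (Benjamini-Hochberg, 13722 genes) was under 0.05. Where removing a trend of each library on transcript length and GC content, an alternative, ended or made a call, turned a direction or moved a value by over 1.5 times, the value so obtained is given as length-corrected. Kat5, the floxed gene, had 8.11 and 8.32 CPM in MATIP 4-OHT, against 41.1 and 41.2 CPM in MATIP EtOH (log2 −2.32 ± 0.09), and 57.5 and 62.5 CPM in MAflox 4-OHT, against 43.7 and 41.2 CPM in MAflox EtOH (log2 0.50 ± 0.07, or 0.33 with library totals alone). Which exons are floxed is not given in the sources used here. All 34 members are annotated as protein-coding on mm10 (GENCODE M21). Of those on which the results turn most, Utp20 lies on chromosome 10 at 88746607 to 88826804 (minus strand), Gnl3 on chromosome 14 at 31012433 to 31019152 (minus strand), Srm on chromosome 4 at 148591503 to 148594993 (plus strand), Cad on chromosome 5 at 31054780 to 31078479 (plus strand) and Polr1a on chromosome 6 at 71909053 to 71984935 (plus strand). Exon bases are shared with another annotated gene by 17 members, and for 12 of them that gene is on the opposite strand, and whether the counting used strand is not given in the sources used here. Marker genes moved with 4-OHT in both lines. The summed level of 12 neutrophil markers was 35607 to 39175 CPM in MATIP 4-OHT against 779 to 927 in MATIP EtOH, and 51442 to 55068 in MAflox 4-OHT against 351 to 352 in MAflox EtOH. That of 12 macrophage markers was 23234 to 24269 against 433 to 473 CPM in MATIP and 5134 to 5229 against 274 to 293 in MAflox cells. All 12 neutrophil markers rose in both lines, and of the macrophage markers 9 rose and 1 fell in each, with C1qa at 0 throughout. The sum of 8 progenitor markers was 436 to 438 CPM in MATIP 4-OHT against 979 to 988 in MATIP EtOH, and 551 to 552 in MAflox 4-OHT against 1038 to 1054 in MAflox EtOH. Of these 8, 5 fell and 1 rose in MATIP and 7 fell in MAflox cells. Hoxa9, a progenitor gene that MLL fusions keep active, fell by 1.37 on the log2 scale in MATIP and by 1.14 in MAflox cells. The sum of 10 proliferation markers was 1747 to 1770 CPM in MATIP 4-OHT against 3406 to 3435 in MATIP EtOH, where 9 fell and 0 rose. It was 3364 to 3577 in MAflox 4-OHT against 3565 to 3716 in MAflox EtOH, where 3 fell and 3 rose. Markers of lymphoid cells summed to at most 1.07 CPM in any library, with Cd3e, Cd8a and Ncr1 at 0, those of erythroid cells and megakaryocytes to at most 8.89, those of mast cells and basophils to at most 60.9 and those of stromal cells to at most 91.5. The part of these markers in the results that follow was not tested, and fewer cells of a type cannot be told apart from less RNA per cell.

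All 34 genes fell with 4-OHT in both lines. Together they took 0.358 ± 0.00688% of counts in MATIP 4-OHT, against 1.37 ± 0.102% in MATIP EtOH, and 0.634 ± 0.0100% in MAflox 4-OHT, against 1.43 ± 0.0331% in MAflox EtOH (mean ± SD, n = 2 each). In MATIP cells 34 of 34 were lower, where 38.6% of all tested genes were lower, and the median log2 fold change was −1.80 (range −2.93 to −0.37). In MAflox cells 34 of 34 were lower, where 32.1% of all tested genes were, with a median of −0.87 (range −2.54 to −0.38). The median over all tested genes was 0.0039 in MATIP and 0.016 in MAflox cells. The fall was at least 2-fold for 31 members in MATIP (14.1% of all tested genes) and for 14 in MAflox cells (8.29%). For all 34 members both 4-OHT libraries lay below both EtOH libraries, in MATIP (44.2% of all tested genes) as in MAflox cells (39.7%). The largest adjusted p of any member, by edgeR's quasi-likelihood test with Benjamini-Hochberg adjustment, was 1.59e-05 in MATIP and 0.000109 in MAflox cells, both for Tfb2m. In the authors' deposited table all 34 log2 fold changes were negative with an adjusted p under 0.05 in both lines, with medians of −1.76 in MATIP and −0.86 in MAflox cells. Those values come from the same libraries, and how many of all genes were lower there was not counted.

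**Figure D1:**
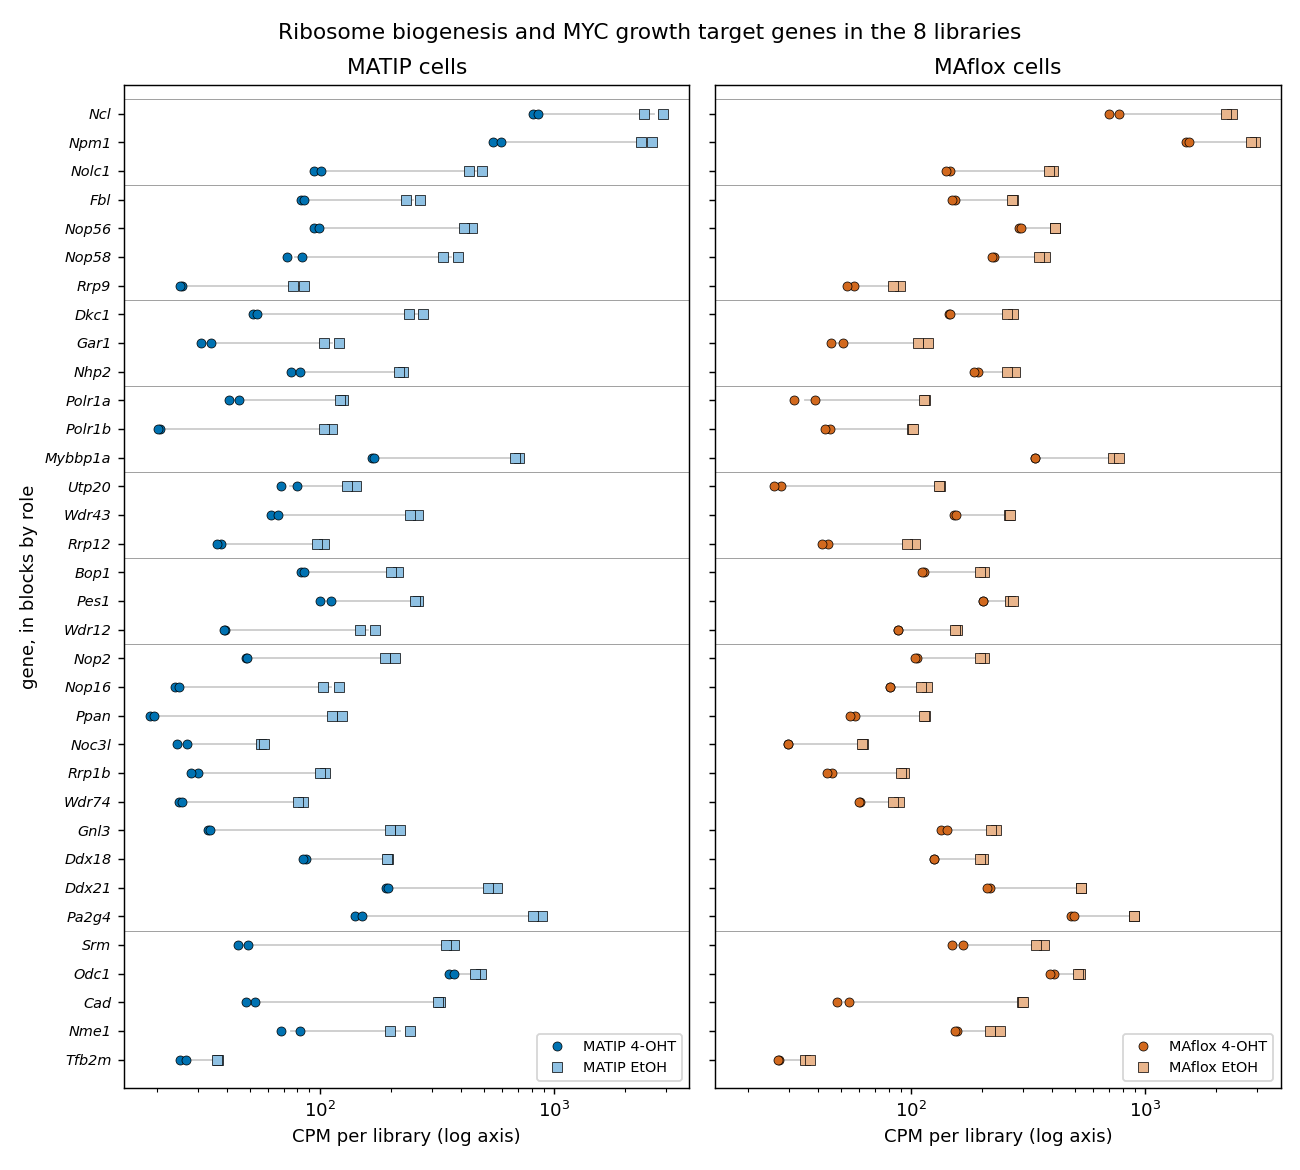
Level of each of the 34 genes in each library, in CPM on a log axis, with MATIP cells on the left and MAflox cells on the right; circles are 4-OHT libraries, squares are EtOH libraries and grey lines join the group means. In every row of both panels the 2 circles sit left of the 2 squares, and the lines are longer in the MATIP panel for 31 of the 34 genes.

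The nucleolar chaperones and scaffolds held the member with the highest level per length of transcript, Npm1, at 350.1 CPM per kilobase in MATIP 4-OHT against 1519 in MATIP EtOH and 928 in MAflox 4-OHT against 1759 in MAflox EtOH. Nucleophosmin, its product, is a chaperone of histones and ribosomal proteins in the nucleolus. Npm1 had 549 and 594 CPM in MATIP 4-OHT, against 2614 and 2346 CPM in MATIP EtOH. In the MAflox line it had 1491 and 1541 CPM in MAflox 4-OHT, against 2933 and 2813 CPM in MAflox EtOH. The MATIP 4-OHT libraries were the lowest of the 8, the MAflox 4-OHT libraries came next and the EtOH libraries of both lines were well above them. Npm1 fell 4.34-fold in MATIP (log2 −2.12 ± 0.06) and 1.89-fold in MAflox cells (log2 −0.92 ± 0.06), and the responses differed by −1.19 ± 0.09 (edgeR adjusted p = 6.72e-10; length-corrected −0.65). Npm1 has processed copies in the genome, and how reads matching several places were counted is not given in the sources used here, so its level is uncertain.

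Ncl, which encodes nucleolin, an RNA-binding protein of the nucleolus, fell in both lines. It had 813 and 853 CPM in MATIP 4-OHT, against 2906 and 2411 CPM in MATIP EtOH, and 774 and 701 CPM in MAflox 4-OHT, against 2339 and 2209.8 CPM in MAflox EtOH. Here the treated libraries of both lines lay close together, with those of MAflox the lowest. The falls were 3.19-fold (log2 −1.67 ± 0.08) in MATIP and 3.08-fold (log2 −1.62 ± 0.08) in MAflox cells, and their difference of −0.05 ± 0.10 did not pass the test (edgeR adjusted p = 0.703). Length-corrected, it was −0.53 and passed (edgeR adjusted p = 0.000446). The gene model of Ncl has long ends, so this correction may be too large. Nolc1, a scaffold that accompanies snoRNPs, fell by 2.25 on the log2 scale in MATIP and by 1.46 in MAflox cells (difference −0.78 ± 0.09, edgeR adjusted p = 3.67e-07).

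The core of the box C/D snoRNPs, which guide methylation of ribosomal RNA, fell in both lines. Fbl encodes fibrillarin, the methyltransferase itself. It had 82.9 and 85.3 CPM in MATIP 4-OHT, against 266 and 233 CPM in MATIP EtOH, and 154 and 149 CPM in MAflox 4-OHT, against 273 and 269 CPM in MAflox EtOH. Nop56, a scaffold of the same particle, had 94.2 and 98.7 CPM in MATIP 4-OHT, against 446 and 409.9 CPM in MATIP EtOH, and 289 and 294 CPM in MAflox 4-OHT, against 409 and 409 CPM in MAflox EtOH. For both genes the MATIP 4-OHT libraries lay below the MAflox 4-OHT libraries, and these below all EtOH libraries. Nop56 stood at 22.5% of its EtOH level in MATIP and at 71.4% in MAflox cells, so the log2 falls of −2.15 ± 0.06 and −0.49 ± 0.06 differed by −1.66 ± 0.08 (edgeR adjusted p = 3.11e-12). For Fbl the log2 changes were −1.57 ± 0.06 in MATIP and −0.84 ± 0.06 in MAflox cells (difference −0.73 ± 0.09, length-corrected −0.45). Nop58, the partner scaffold of Nop56, fell by 2.21 and by 0.69 in the same order of lines (difference −1.52 ± 0.10). Length-corrected, the fall of Nop58 in MAflox cells was −0.20, though its gene model has long ends and may be overcorrected. Rrp9, a protein particular to the U3 snoRNP, fell by 1.67 and by 0.65 (difference −1.02 ± 0.10). All 4 of these differences passed, with adjusted p of at most 7.40e-07 in edgeR's quasi-likelihood test (Fbl). The host transcripts of Nop56 and Nop58 share exon bases with annotated snoRNA genes on the same strand. The same holds for Ncl, Ppan and Gnl3.

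The box H/ACA particle, which guides the conversion of uridine to pseudouridine, fell likewise. Dkc1 encodes dyskerin, its catalytic protein, which is also part of telomerase. Dkc1 had 51.7 and 53.8 CPM in MATIP 4-OHT, against 276 and 241 CPM in MATIP EtOH, and 145 and 146 CPM in MAflox 4-OHT, against 273 and 257 CPM in MAflox EtOH. Treated MATIP libraries were on average at 20.4% of the EtOH level and treated MAflox libraries at 55.0%, with no overlap between any treated and any EtOH library. The log2 responses of −2.29 ± 0.07 and −0.86 ± 0.06 differed by −1.43 ± 0.09 (edgeR adjusted p = 1.56e-10). Gar1, a core protein of the particle, fell by 1.79 in MATIP and by 1.21 in MAflox cells, and the difference of −0.58 ± 0.12 passed (edgeR adjusted p = 0.000267; length-corrected −0.33). Nhp2, another core protein, fell by 1.50 and by 0.49 (difference −1.01 ± 0.09). Length-corrected, Nhp2 had −0.92 in MAflox cells and a difference of −0.63.

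Polr1a and Polr1b encode the pair of large catalytic subunits of RNA polymerase I, and both fell in both lines. Polr1a had 44.9 and 41.0 CPM in MATIP 4-OHT, against 125 and 122 CPM in MATIP EtOH, and 38.6 and 31.7 CPM in MAflox 4-OHT, against 114 and 114 CPM in MAflox EtOH. Polr1b had 20.8 and 20.2 CPM in MATIP 4-OHT, against 112 and 103 CPM in MATIP EtOH, and 44.9 and 42.9 CPM in MAflox 4-OHT, against 101 and 102 CPM in MAflox EtOH. For Polr1b the treated MATIP libraries were lower than the treated MAflox libraries, and for Polr1a the order was the opposite, while the EtOH libraries stood above the treated ones for both genes. The log2 changes of Polr1b were −2.40 ± 0.07 in MATIP and −1.21 ± 0.07 in MAflox cells (difference −1.19 ± 0.09, edgeR adjusted p = 2.34e-09). Those of Polr1a were −1.52 ± 0.08 and −1.70 ± 0.08, and their difference of 0.17 ± 0.11 did not pass (edgeR adjusted p = 0.183). Length-corrected, the difference for Polr1a was −0.64 and passed (edgeR adjusted p = 1.44e-05), with −1.03 in MAflox cells. Without MAflox 4-OHT replicate 1 it was 0.35 and passed in the other direction (edgeR adjusted p = 0.00692). Per length of transcript Polr1a had the lowest level of all 34 genes in MAflox EtOH, at 12.4 CPM per kilobase. Mybbp1a, a nucleolar protein that binds MYB and whose promoter is printed above, fell by 2.04 in MATIP and by 1.15 in MAflox cells (difference −0.89 ± 0.08).

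Among the factors of the small subunit, Utp20 was the single member that fell less in MATIP cells by the test. Utp20 encodes a very large scaffold of the small subunit processome. It had 79.8 and 68.1 CPM in MATIP 4-OHT, against 142 and 131 CPM in MATIP EtOH, and 27.8 and 25.8 CPM in MAflox 4-OHT, against 132 and 131 CPM in MAflox EtOH. The MAflox 4-OHT libraries were the lowest, those of MATIP 4-OHT lay between, and the 4 EtOH libraries lay close together at the top. Utp20 fell 1.84-fold in MATIP (log2 −0.88 ± 0.07) and 4.91-fold in MAflox cells (log2 −2.29 ± 0.08), a difference of 1.41 ± 0.11 (edgeR adjusted p = 1.06e-09). Length-corrected, the difference was 0.73. Wdr43, a processome protein that joins transcription to processing and whose promoter is printed above, went the way of most members. Its log2 changes were −1.98 ± 0.06 in MATIP and −0.77 ± 0.06 in MAflox cells (difference −1.22 ± 0.08). Rrp12, needed for export of ribosomal subunits in yeast, fell by 1.44 and by 1.22, and the difference of −0.22 ± 0.10 did not pass (edgeR adjusted p = 0.0513). It passed when length-corrected (−0.55, edgeR adjusted p = 4.16e-05), and also without MAflox EtOH replicate 1 or without MATIP EtOH replicate 2 (−0.29 and −0.28).

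The PeBoW complex is made of the products of Pes1, Bop1 and Wdr12 and is needed for the large subunit. All 3 genes fell in both lines, and fell more in MATIP cells. Bop1 had 82.7 and 84.9 CPM in MATIP 4-OHT, against 216 and 200.2 CPM in MATIP EtOH, and 113 and 111 CPM in MAflox 4-OHT, against 205 and 196 CPM in MAflox EtOH. Pes1 had 100.1 and 111 CPM in MATIP 4-OHT, against 261 and 254 CPM in MATIP EtOH, and 203 and 203 CPM in MAflox 4-OHT, against 264 and 273 CPM in MAflox EtOH. Wdr12 had 39.2 and 38.9 CPM in MATIP 4-OHT, against 172 and 148 CPM in MATIP EtOH, and 87.3 and 88.0 CPM in MAflox 4-OHT, against 156 and 153 CPM in MAflox EtOH. In every case the treated MATIP libraries were lowest and the treated MAflox libraries next, with all EtOH libraries above. In MATIP cells Wdr12 stood at 24.4% of its EtOH level, Bop1 at 40.3% and Pes1 at 41.0%, and in MAflox cells at 56.7%, 55.8% and 75.6%. The log2 difference between the lines was −1.22 ± 0.09 for Wdr12, −0.47 ± 0.08 for Bop1 and −0.88 ± 0.08 for Pes1. By edgeR the adjusted p of these 3 differences was at most 5.92e-05 (Bop1). Length-corrected, Wdr12 fell by 0.32 in MAflox cells, with a difference of −1.75, though its gene model has long ends and may be overcorrected. Pes1 shares 138 exon bases with a gene on the opposite strand.

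The other 10 factors of the 60S subunit had a median log2 change of −1.93 in MATIP and −0.90 in MAflox cells. Pa2g4, a growth-regulated protein that binds ribosomes and their precursors, had the highest level of them per length of transcript in all 4 groups. It had 141 and 150.2 CPM in MATIP 4-OHT, against 888 and 809 CPM in MATIP EtOH, and 481 and 496 CPM in MAflox 4-OHT, against 891 and 895 CPM in MAflox EtOH. Both treated groups lay below every EtOH library, the MATIP one far lower, and the falls were 5.82-fold and 1.83-fold (log2 −2.54 ± 0.06 and −0.87 ± 0.06, difference −1.67 ± 0.08, edgeR adjusted p = 4.56e-12). The widest gap between the lines among all members, with no length correction, was that of Gnl3, which encodes nucleostemin, a nucleolar GTPase of stem and cancer cells. Gnl3 had 33.3 and 33.9 CPM in MATIP 4-OHT, against 219 and 199 CPM in MATIP EtOH, and 133 and 143 CPM in MAflox 4-OHT, against 231 and 219 CPM in MAflox EtOH. It stood at 16.1% of its EtOH level in MATIP and 61.4% in MAflox cells, with log2 changes of −2.64 ± 0.07 and −0.70 ± 0.06 (difference −1.93 ± 0.09, edgeR adjusted p = 1.65e-12). Length-corrected, its difference was −1.54, and that of Nop58, at −2.05, was the widest, though Nop58 may be overcorrected.

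Of the further factors of the large subunit, 6 also fell more in MATIP cells by the test. Nop2, a ribosomal RNA methyltransferase whose promoter is printed above, fell by 2.04 on the log2 scale in MATIP and by 0.93 in MAflox cells (difference −1.11 ± 0.09). Nop16, a nucleolar protein of the early large-subunit precursor in yeast, fell by 2.19 and by 0.49 (difference −1.70 ± 0.10). Ppan, whose yeast relative Ssf1 acts in early large-subunit assembly, fell by 2.62 and by 1.02 (difference −1.60 ± 0.09). For Rrp1b, a nucleolar relative of yeast Rrp1, the falls were 1.81 and 1.04 and the difference −0.77 ± 0.09, written as log2 values. Wdr74, a nucleolar WD-repeat protein, fell by 1.70 and by 0.52 (difference −1.18 ± 0.09; length-corrected −0.88 in MAflox cells). Ddx18, an RNA helicase, fell by 1.18 and by 0.67 (difference −0.51 ± 0.08, edgeR adjusted p = 9.55e-06; length-corrected −0.29). In 2 genes of this group the lines did not differ by the test. Noc3l, whose yeast relative Noc3 moves large-subunit precursors, fell by 1.14 in MATIP and by 1.05 in MAflox cells (difference −0.08 ± 0.10, edgeR adjusted p = 0.505; length-corrected −0.04). Ddx21, a nucleolar RNA helicase, fell by 1.50 and by 1.31 (difference −0.18 ± 0.08, edgeR adjusted p = 0.0530). Its difference passed when length-corrected (−0.36, edgeR adjusted p = 0.000348) and without MATIP EtOH replicate 2 (−0.26). A p that misses 0.05 does not show equal responses.

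Enzymes of growth metabolism spread widest. Srm and Odc1 act in the same pathway, polyamine synthesis: ornithine decarboxylase, the product of Odc1, makes putrescine, and spermidine synthase, the product of Srm, uses it. Srm had 44.8 and 49.2 CPM in MATIP 4-OHT, against 373 and 346 CPM in MATIP EtOH, and 166 and 149 CPM in MAflox 4-OHT, against 369 and 341 CPM in MAflox EtOH. Odc1 had 356 and 374 CPM in MATIP 4-OHT, against 486 and 456 CPM in MATIP EtOH, and 406 and 393 CPM in MAflox 4-OHT, against 524 and 515 CPM in MAflox EtOH. Srm showed the largest fall of any member in MATIP cells and Odc1 the smallest in either line (in MAflox cells Nop58, Wdr12 and Pes1 fell less when length-corrected), though for both genes no treated library reached an EtOH library of its own line. Srm fell 7.65-fold in MATIP (log2 −2.93 ± 0.07) and 2.26-fold in MAflox cells (log2 −1.17 ± 0.07), a difference of −1.76 ± 0.10 (edgeR adjusted p = 1.89e-11). Odc1 fell 1.29-fold (log2 −0.37 ± 0.06) and 1.30-fold (log2 −0.38 ± 0.06), with a difference of 0.01 ± 0.08 (edgeR adjusted p = 0.913; length-corrected 0.15).

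Cad, the enzyme that starts pyrimidine synthesis, fell strongly in both lines. It had 52.8 and 48.4 CPM in MATIP 4-OHT, against 326 and 319 CPM in MATIP EtOH, and 54.4 and 48.3 CPM in MAflox 4-OHT, against 297 and 299 CPM in MAflox EtOH. The treated libraries of the lines overlapped, at 15.7% of the EtOH level in MATIP and 17.2% in MAflox cells. The log2 changes were −2.67 ± 0.07 and −2.54 ± 0.07, the largest of any member in MAflox cells, and the difference of −0.14 ± 0.09 did not pass (edgeR adjusted p = 0.194). Length-corrected, it was −0.91 and passed (edgeR adjusted p = 1.01e-08). Tfb2m encodes a transcription factor of mitochondrial DNA. It had 25.3 and 26.8 CPM in MATIP 4-OHT, against 36.4 and 36.1 CPM in MATIP EtOH, and 27.1 and 26.9 CPM in MAflox 4-OHT, against 35.2 and 36.8 CPM in MAflox EtOH. All treated libraries were lower than all EtOH libraries by a small margin, and the log2 changes were −0.48 ± 0.08 and −0.41 ± 0.08 (difference −0.06 ± 0.11, edgeR adjusted p = 0.630). Length-corrected, Tfb2m had −0.66 in MAflox cells, and the difference was 0.31 and passed (edgeR adjusted p = 0.0170). Nme1, a nucleoside diphosphate kinase whose promoter is printed above, fell by 1.55 in MATIP and by 0.56 in MAflox cells (difference −0.99 ± 0.12). It shares 418 exon bases on its own strand with the protein-coding gene model Gm20390, so its counts are uncertain.

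**Figure D2:**
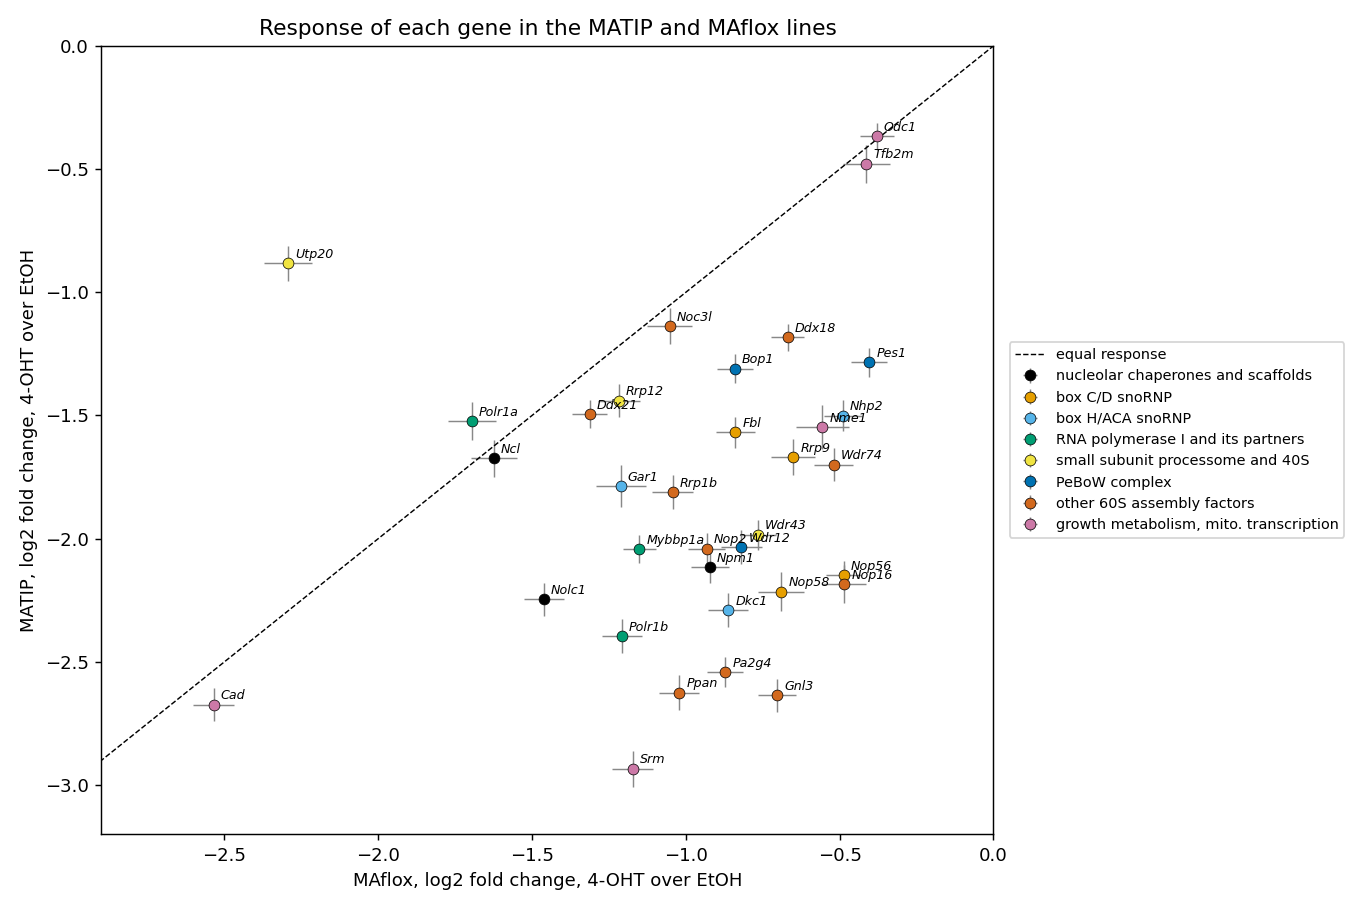
Log2 fold change of each gene with 4-OHT over EtOH in MATIP cells (vertical axis) against MAflox cells (horizontal axis), coloured by role, with bars of 1 standard error; the dashed line marks an equal response. Of the 34 points 31 lie below the line, where the log2 fold change is lower in MATIP cells, and Utp20 stands above it at −0.88 in MATIP and −2.29 in MAflox cells.

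The test of the difference between the lines asks which genes responded otherwise in cells with floxed Tip60 than in MAflox cells. By this test 25 of 34 members fell more in MATIP cells, where 33.6% of all tested genes had a lower response there, and 1, Utp20, fell less, where 28.3% had a higher one. For the other 8 (Ncl, Polr1a, Rrp12, Noc3l, Ddx21, Odc1, Cad and Tfb2m) the difference did not pass. Length-corrected, 5 of these 8 (Ncl, Polr1a, Rrp12, Ddx21 and Cad) fell more and Tfb2m fell less in MATIP cells, and Noc3l and Odc1 did not pass. The median difference over the members was −0.94 on the log2 scale, against −0.034 over all tested genes. By role, the median difference was −1.27 for the box C/D snoRNP, −1.14 for the other 60S factors, −1.01 for the box H/ACA snoRNP, −0.89 for RNA polymerase I and its partners, −0.88 for PeBoW, −0.78 for the nucleolar chaperones, −0.22 for the small subunit factors and −0.14 for growth metabolism. Length-corrected, the medians in the same order were −1.18, −1.11, −0.63, −1.18, −0.84, −0.65, −0.55 and −0.91, so the order of the roles depended on the correction. The order of the genes was not the same in the lines. Across the 34 members the log2 changes in MATIP and MAflox cells had a Pearson r of 0.187 and a Spearman rho of 0.217, a description over genes that share the same 8 libraries. Their spread was similar, with SDs of 0.60 in MATIP and 0.50 in MAflox cells.

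Levels in the treated cells were set side by side as well. For 30 members both MATIP 4-OHT libraries lay below both MAflox 4-OHT libraries (43.3% of all tested genes). For Ncl, Polr1a and Utp20 both lay above (44.7% of all tested genes), and for Cad they overlapped. By group means, 17 members had the order MATIP 4-OHT, MAflox 4-OHT, MATIP EtOH, MAflox EtOH from low to high, 14 had the same treated order with MATIP EtOH highest, and 3 had MAflox 4-OHT lowest. In ethanol few members differed between the lines by the test. In MATIP EtOH against MAflox EtOH, 2 members were higher (20.3% of all tested genes), 2 were lower (11.7%) and 30 did not pass, with a median log2 difference of −0.0036 and no value beyond −0.26 or 0.23. Ncl (0.23 ± 0.07) and Nolc1 (0.23 ± 0.06) were the higher pair, and Npm1 (−0.21 ± 0.06) and Nhp2 (−0.26 ± 0.06) the lower pair. The call of Ncl ended when length-corrected (0.11, edgeR adjusted p = 0.312). These 4 calls changed with the libraries and the scaling used, with 0 to 2 higher and 0 to 5 lower. The MATIP EtOH libraries also differed from each other: replicate 1 was above replicate 2 for 33 of the 34 members, against 48% of all tested genes, by up to 1.21-fold (Nme1). Replicate 1 was higher for 26 members in MAflox EtOH (46.2% of all tested genes), 24 in MAflox 4-OHT (50%) and 9 in MATIP 4-OHT (46.9%). The widest gap between replicates in any group was 1.22-fold, for Polr1a in MAflox 4-OHT. Without replicate 1 of MATIP EtOH 0 members were higher and 4 were lower than in MAflox EtOH.

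In MAflox cells the members with long transcripts fell most. Across the 34 genes the log2 change went with the log2 length of the longest protein-coding transcript in GENCODE M21, with a Pearson r of −0.567 and a Spearman rho of −0.494. In MATIP cells the values were 0.0636 and 0.0637. Over all 13195 tested genes with a length they were 0.0357 and 0.0616 in MATIP and −0.175 and −0.269 in MAflox cells. Cad (7137 bases), Utp20 (8821), Polr1a (9216) and Ncl (8202), the 4 largest falls in MAflox cells, are all among the long members. Nop58 (9507 bases) and Wdr12 (10012) are as long and fell by 0.69 and by 0.82. The gene models of Ncl, Nop58 and Wdr12 have long ends that the cells may not use, so a correction for length may be too large for them. With a trend of each library on length and GC content removed, r over the members was 0.0195 in MAflox cells. All 34 members still fell in MAflox cells, though Nop58 only just (log2 −0.20, edgeR adjusted p = 0.0450), and all 34 fell in MATIP cells. The median became −1.87 in MATIP and −0.96 in MAflox cells. Removing it moved the test of the difference to 30 lower and 2 higher. Cad, Polr1a, Ncl (−0.53), Rrp12 (−0.55) and Ddx21 (−0.36) then fell more in MATIP cells. Utp20 fell less (0.73) and so did Tfb2m (0.31, edgeR adjusted p = 0.0170). Over the 8 alternatives to the test of the difference, this removal among them, 3968 to 4595 of all genes were lower and 3413 to 4212 higher. Over the alternatives for each line, 4738 to 5996 of all genes fell in MATIP and 4175 to 5587 in MAflox cells. Which of the values is nearer to the cells' RNA was not tested.

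**Figure D3:**
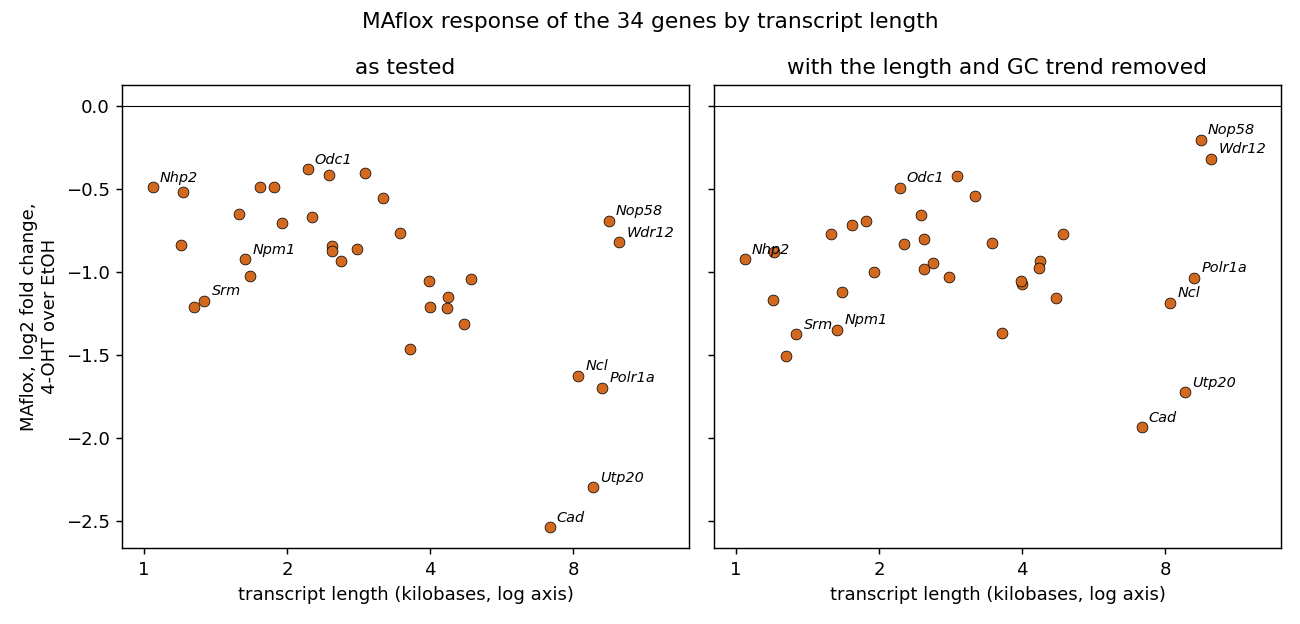
Log2 fold change of each of the 34 genes in MAflox cells, 4-OHT over EtOH, against transcript length in kilobases on a log axis, as tested (left) and with the trend on length and GC content removed (right); each point is a gene. Pearson's r is −0.567 on the left and 0.0195 on the right, and all points stay below 0.

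Other genes of the same pathways were read from lists that do not hold the members. In 5 lists of ribosome biogenesis, 122 of 131 tested genes fell and 3 rose in MATIP cells (median log2 −1.12), and 107 fell and 9 rose in MAflox cells (median −0.50). Of all tested genes 38.6% fell and 37.5% rose in MATIP cells, and 32.1% fell and 33.1% rose in MAflox cells. Of 44 factors of the small subunit processome and the 40S subunit, 44 fell in MATIP cells (median −1.17), among them Cirh1a, listed under its older symbol (now Utp4, −1.75 ± 0.06), and Mphosph10 (−1.73 ± 0.06), named as the calls with the smallest p. In MAflox cells 38 fell and 0 rose (median −0.64), among them Nol6 (−1.77 ± 0.08) and the RNA acetyltransferase gene Nat10 (−1.43 ± 0.07). Of 47 factors of the 60S subunit, 44 fell and 0 rose in MATIP (median −1.14) and 43 fell and 3 rose in MAflox cells (median −0.55). Npm3, a relative of Npm1 (−2.30 ± 0.07), and Rsl1d1 (−1.85 ± 0.06) had the smallest p in MATIP cells. Mdn1, a giant ATPase of subunit maturation (−2.29 ± 0.09), and Nol9, a polynucleotide kinase (−1.25 ± 0.06), had it in MAflox cells, where Nsa2 rose (0.43 ± 0.06). Among 10 further snoRNP proteins 9 fell and 1 rose in MATIP (median −1.10) and 8 fell and 2 rose in MAflox cells (median −0.38). Named in the same way, Ruvbl2 (−2.51 ± 0.06 in MATIP), an ATPase that serves snoRNP assembly and is also a subunit of the TIP60 complex, fell, as did Naf1 (−2.21 ± 0.07 in MATIP, −1.32 ± 0.07 in MAflox), an assembly factor of H/ACA snoRNPs, and Ruvbl1 (−1.12 ± 0.07 in MAflox). Pih1d1 rose in both lines (0.55 ± 0.07 in MATIP, 0.34 ± 0.07 in MAflox), and Znhit3 rose in MAflox cells (0.47 ± 0.08). Length-corrected, Znhit3 was at −0.12 and did not pass (edgeR adjusted p = 0.220), and 0 of the 10 rose in MAflox cells. Nsa2 was at 0.18 and Mdn1 at −1.49, and both still passed.

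Of 16 tested genes of the RNA polymerase I machinery 13 fell and 1 rose in MATIP (median −0.95) and 10 fell and 3 rose in MAflox cells (median −0.31). Tcof1, the treacle protein (−1.52 ± 0.06 in MATIP, −1.73 ± 0.06 in MAflox), and Ubtf, the upstream binding factor of ribosomal DNA (−1.48 ± 0.07 and −0.74 ± 0.07), fell in both. Ttf1, the termination factor, rose in MATIP (0.28 ± 0.08) and Polr2k, a subunit shared by the nuclear RNA polymerases, rose in MAflox cells (0.47 ± 0.09). Length-corrected, Polr2k fell in MAflox cells (−0.35, edgeR adjusted p = 0.00130), Ubtf was at −0.48 there and 1 gene of the list rose. With library totals alone Ttf1 was at 0.14 in MATIP cells and did not pass (edgeR adjusted p = 0.0915). In the RNA exosome 12 of 14 genes fell and 1 rose in MATIP (median −1.20), with the smallest p for Dis3 (−1.98 ± 0.07), a ribonuclease of the complex, and Exosc5 (−1.62 ± 0.07). In MAflox cells 8 fell and 1 rose (median −0.31), with the smallest p for Dis3 (−0.79 ± 0.06) and Exosc10 (−0.57 ± 0.06). C1d rose in both (0.20 ± 0.06 and 0.39 ± 0.06). In MAflox cells 13 exosome genes fell with library totals alone, and 13 fell and 0 rose when length-corrected, with C1d at 0.12 and not passing (edgeR adjusted p = 0.0853). In MATIP cells C1d did not pass with library totals alone (0.072) or without MATIP EtOH replicate 2 (0.13), and was at 0.41 when length-corrected. Of 36 tested MYC growth targets outside ribosome biogenesis 33 fell and 2 rose in MATIP (median −1.47) and 28 fell and 4 rose in MAflox cells (median −0.40). Cdk4, a cell cycle kinase (−2.46 ± 0.06), and the mitochondrial protein gene C1qbp (−2.39 ± 0.07) had the smallest p in MATIP cells, where Slc3a2, the heavy chain of an amino acid transporter, rose (0.86 ± 0.05). Hspd1, a mitochondrial chaperonin (−1.66 ± 0.07), and Slc7a5, the light chain of that transporter (−1.31 ± 0.06), had it in MAflox cells, where lactate dehydrogenase Ldha rose (0.58 ± 0.08, length-corrected 0.37). With library totals alone, and without MAflox EtOH replicate 1, 2 of the 36 rose in MAflox cells. The median fall of every one of these 6 lists was smaller than that of the 34 members in the same line.

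**Figure D4:**
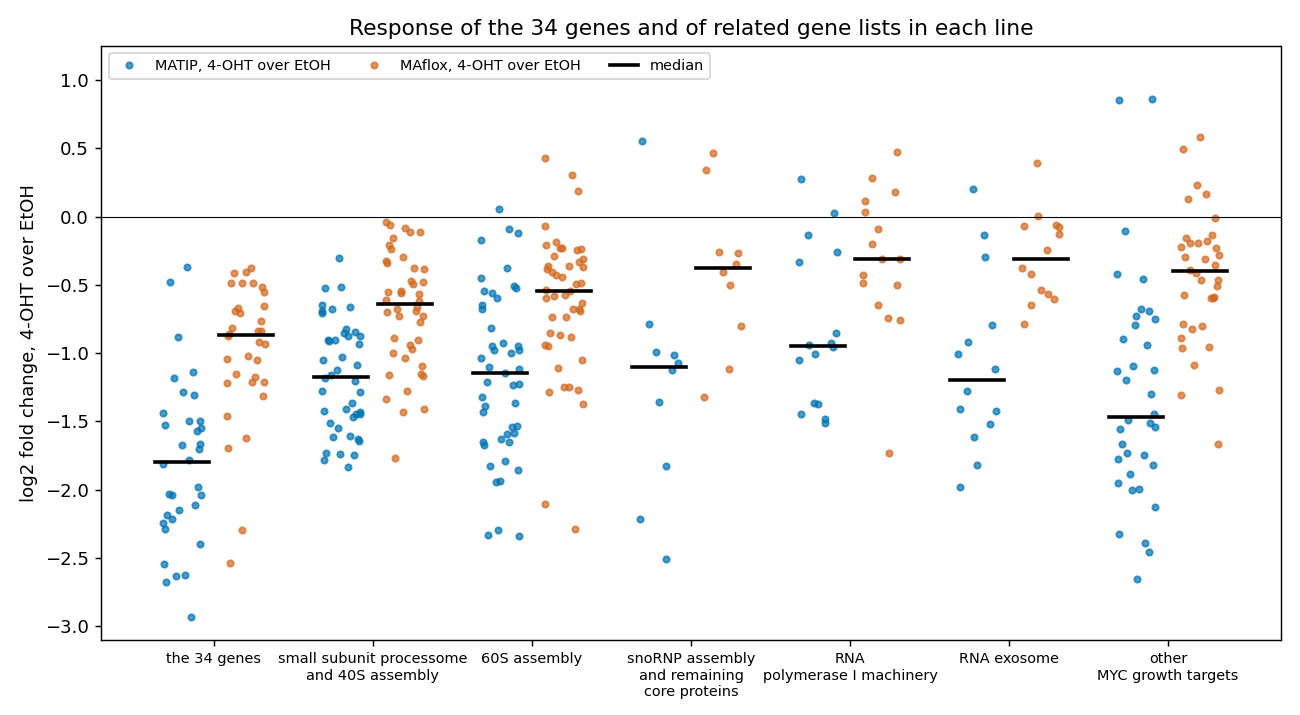
Log2 fold change, 4-OHT over EtOH, of the 34 genes and of 6 lists of related genes, with MATIP cells in blue and MAflox cells in orange; each point is a gene and each black bar a median. The bars lie below 0 in both lines for every list, at −1.80 in MATIP and −0.87 in MAflox cells for the 34 genes and at −0.95 and −0.31 for the RNA polymerase I machinery.

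Among the genes of MYC and its partners some rose and others fell. Myc itself had 443 and 448 CPM in MATIP 4-OHT, against 348 and 371 CPM in MATIP EtOH, and 227 and 197 CPM in MAflox 4-OHT, against 339 and 335 CPM in MAflox EtOH. The treated MATIP libraries were above and the treated MAflox libraries below the EtOH libraries of their lines. Myc rose in MATIP (log2 0.31 ± 0.06, edgeR adjusted p = 0.000212; 0.18 with library totals alone) and fell in MAflox cells (log2 −0.67 ± 0.06, edgeR adjusted p = 2.20e-08). Max, the partner that MYC needs to bind DNA, fell in both (log2 −1.24 ± 0.06 in MATIP, −0.25 ± 0.06 in MAflox, where it was at −0.45 length-corrected). Mxd1, which competes with MYC for MAX and represses its targets, had 865 and 881 CPM in MATIP 4-OHT, against 21.6 and 31.3 CPM in MATIP EtOH, and 253 and 249.8 CPM in MAflox 4-OHT, against 24.3 and 26.9 CPM in MAflox EtOH. With Mycn left aside it was the largest rise of the network in both lines (log2 5.03 ± 0.11 and 3.29 ± 0.11). Mxi1, of the same repressor family, rose in both (0.87 ± 0.07 and 1.40 ± 0.08). Mxd3 had log2 changes of −0.15 ± 0.15 in MATIP, not passing, and 1.96 ± 0.13 in MAflox cells. Mxd4 had 0.15 ± 0.11 in MATIP, not passing (length-corrected 0.08), and 0.44 ± 0.11 in MAflox cells. Mnt, another MAX-binding repressor, was at −0.09 ± 0.08 in MATIP, not passing, and fell in MAflox cells (−0.67 ± 0.08). Length-corrected, Mnt fell in both (−0.22, edgeR adjusted p = 0.00971, and −0.31), and with library totals alone it fell in MATIP cells too (−0.22). Mga fell in both (−0.45 ± 0.10 and −0.77 ± 0.10), though not in MAflox cells when length-corrected (−0.12, edgeR adjusted p = 0.186). Without MATIP 4-OHT replicate 2 Mga was at −0.29 in MATIP cells. Mlx, a relative of MAX, fell in MATIP (−0.90 ± 0.06) and rose in MAflox cells (0.61 ± 0.06). Mycn was counted 76 and 126 times in MATIP 4-OHT against 0 and 4 in MATIP EtOH, and 0 and 2 times in MAflox 4-OHT against 12 and 22 in MAflox EtOH, so no fold is given. In all, 4 of the 10 tested genes of the network rose and 3 fell in MATIP cells, and 5 rose and 5 fell in MAflox cells. Of all tested genes 37.5% rose and 38.6% fell in MATIP cells, near the shares of the network, and 33.1% rose and 32.1% fell in MAflox cells.

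Outside the members, the genes whose 4 group means were most like the median profile of the 34 were found among 9772 tested genes of at least 5 CPM. Likeness was the root mean square distance of centred log2 CPM over the 4 group means. Ddx56 was nearest (0.0338), followed by Tada2a (0.0439), Yars (0.0441), Naa25 (0.0449) and Ino80e (0.0456). Ddx56, a nucleolar helicase that is in the 60S list, had 37.8 and 37.7 CPM in MATIP 4-OHT, against 153 and 137 CPM in MATIP EtOH, and 80.1 and 74.6 CPM in MAflox 4-OHT, against 146 and 136 CPM in MAflox EtOH. Of the members themselves Wdr12 was the nearest to the profile (0.0719) and Utp20 the farthest (0.864).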

How the data were processed

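RNA was sequenced from 8 libraries of MLL-AF10 mouse bone marrow cells, 2 in each of 4 groups taken from the sample titles. The count table that the authors deposited gives raw, whole-number counts for each gene symbol. The build was mm10, and HISAT2 2.1.0, featureCounts 1.6.4, Trimmomatic 0.38.0 and DESeq2 were used, per the submitters' processing notes. How strand and reads matching several places were handled, and with which annotation, is not given in the sources used here. Per the file headers, a further deposited table has log2 fold changes of 4-OHT over EtOH in each line with adjusted p-values. Its values are printed only where named.

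A filter on low counts (filterByExpr of edgeR by group, at least 10 counts and 15 in total) kept 13722 genes. Counts were scaled with TMM and tested with the quasi-likelihood test of edgeR 4.0.16 (R 4.3.3) on all 8 libraries, 1 coefficient per group and no covariate (4 residual degrees of freedom, prior 14.3, biological coefficient of variation 5.98%). The contrasts set 4-OHT against EtOH in each line, the MATIP response against the MAflox response, and MATIP EtOH against MAflox EtOH, with Benjamini-Hochberg adjustment within a contrast and a threshold of 0.05. The MATIP contrast was also run on simulated counts of 13354 genes. At log2 changes of 0.5, 1 and 2 it recovered 55 of 67, 63 of 65 and 68 of 68 changed genes, with 12 false calls. Far fewer genes were changed there than in the data, so scaling under wide shifts was not checked, nor was the test of the difference. Replicate libraries were not duplicates of each other, since their counts gave a chi-square of 7.33 to 13.6 per degree of freedom.

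The 34 members, their roles and the related and marker lists were chosen with earlier results of these data known, so lists are described and not tested, and every member is named. Values per library are given for members chosen within each role, and Gnl3 was added after its values were seen. Related genes are the 2 calls with the smallest p in each line and the largest call the other way, and every tested gene of the MYC network is named. Of 183 related symbols 179 were found, 5 by an older symbol. Transcript lengths and GC content (GENCODE M21, longest protein-coding transcript, 96.2% of tested genes) entered a smooth trend per library (mgcv 1.9.3) as an alternative. Others were DESeq2 1.42.0, other scalings, no filter, a replicate block and leaving out each library.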

Additional observations from a re-analysis of the deposited data

Results flagged for a closer look

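The responses to 4-OHT differed between the lines for 26 members by edgeR's test of the difference with Benjamini-Hochberg adjustment over 13722 genes. Of these members 25 were lower in MATIP cells, as were 33.6% of all tested genes, and 1 was higher, as were 28.3%. Values are the log2 response in MATIP minus that in MAflox cells. For chaperones and scaffolds the differences were Npm1 −1.19 and Nolc1 −0.78. For the box C/D snoRNP they were Nop56 −1.66, Nop58 −1.52, Rrp9 −1.02 and Fbl −0.73, and for the box H/ACA snoRNP Dkc1 −1.43, Nhp2 −1.01 and Gar1 −0.58. RNA polymerase I and its partners had Polr1b −1.19 and Mybbp1a −0.89, and the small subunit factors Wdr43 −1.22 and Utp20 1.41. In PeBoW they were Wdr12 −1.22, Pes1 −0.88 and Bop1 −0.47. The remaining 60S factors had Gnl3 −1.93, Nop16 −1.70, Pa2g4 −1.67, Ppan −1.60, Wdr74 −1.18, Nop2 −1.11, Rrp1b −0.77 and Ddx18 −0.51, and the metabolic genes Srm −1.76 and Nme1 −0.99. Kat5, the floxed gene, had −2.82. Summed proliferation, macrophage, neutrophil and progenitor markers, given with the marker values, also lay apart between the treated groups of the lines. So did the low sums of the other marker lists. The part of these markers in the differences of the members was not tested. Line and 4-OHT response rest on 2 libraries a group, and the presence of Cre-ERT2 in MAflox cells is not given, so an effect of 4-OHT itself and one of recombination cannot be told apart in either line.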

How the results depend on the processing

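All 34 members stayed lower in MATIP cells under every one of the 9 alternatives and 8 left-out libraries tried (median −1.93 to −1.73), and in MAflox cells under all but 1 of 8 and all 8 left-out libraries (median −1.04 to −0.85). The exception was the replicate block with the length and GC trend removed, where 33 were lower and Nop58 missed (log2 −0.20, edgeR adjusted p = 0.0575). With library totals alone the median was −1.93 in MATIP and −1.04 in MAflox cells, while the median of all genes moved to −0.13 and −0.15. Relative to all genes the members' medians were then −1.80 and −0.89. DESeq2 gave −1.73 in MATIP cells, where its median of all genes was 0.14. With the length and GC trend removed the MAflox median was −0.96, also with the replicate block. The difference between lines gave 25 to 30 members lower and 1 to 2 higher, with medians of −0.99 to −0.85. Of members whose difference had not passed, Polr1a went to −0.64 and Tfb2m to 0.31 with the trend removed (−0.63 and 0.31 with the block too), Ncl to 0.022 and Tfb2m to 0.0076 with DESeq2 size factors, and to 0.020 and 0.0055 with DESeq2. Without single libraries the differences ranged from −0.19 to 0.085 for Ncl, from −0.14 to 0.017 for Noc3l, from −0.11 to 0.0036 for Tfb2m and from −0.044 to 0.076 for Odc1. Of related genes, Znhit3 went to −0.12 and Polr2k to −0.35 in MAflox cells with the trend removed, with and without the block (Polr2k passed as lower, Znhit3 did not pass), and Mnt to 0.0033 in MATIP cells without MATIP 4-OHT replicate 2. Beyond the trend's own removal, the cause was not tested. Between EtOH groups 1 member was higher with library totals, DESeq2, the trend removed or only the 4 libraries compared, and 5, 4, 4 and 4 were lower. Without single libraries 0 to 2 were higher and 0 to 4 lower. No shared variation of same-numbered libraries was seen: their deviations correlated at 0.0076 in MAflox and −0.11 in MATIP cells over 9806 genes. With 2 libraries a group this cannot show whether same-numbered libraries come from the same culture. The replicate block left 34 members lower in both lines, 25 lower and 1 higher for the difference, and medians of −1.80, −0.87 and −0.94. With the MATIP numbers crossed, an alternative chosen after seeing the data, 34 members were lower in MATIP cells and 27 lower and 1 higher for the difference. With 2 libraries a group, the spread rests on 4 residual degrees of freedom.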
